A study of Mus musculus with 9 samples.

Results

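The free leg of mice whose other hind leg was immobilized (Con) was compared with the leg of mice that were not immobilized (NC), to ask what the free leg shows as a control. The 6 samples of these 2 groups, 3 each, were taken from the 9 samples of the series by their labels, and the other 3 were the immobilized legs (Dis). A gene was tested when it reached 0.3 TPM (transcript abundance scaled to a fixed total per sample) in at least 3 of the 6 samples, which kept 15437 of the 55487 genes listed. All mice were C57BL/6 males, and the muscle was the gastrocnemius, a mixed and mainly fast calf muscle, from which bulk RNA was sequenced. The series text gives an age of 8 weeks. By the methods the mice were bought at that age and adapted for some weeks before grouping, so they were older at immobilization. Dis legs were fixed in a thermoplastic bandage for 7 days. Con legs were the contralateral legs of the immobilized mice and moved freely, and NC legs came from mice with no treatment. No agent, transgene or mutation was used in any group. The sources differ on details, since RNA is said to come from the tibialis anterior in the methods and from the gastrocnemius in the labels, and Con is described as immobilized in the series text and as contralateral in the sample labels. Con and NC legs came from different mice, so the bandage on the other leg, the anesthesia used to fit it, and any difference in handling or time of collection go with the group and cannot be told apart. No label links a Con sample to a Dis sample of the same mouse, and the p-values measure only the spread between these samples.

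As background, skeletal muscle senses load through proteins at the Z-disc and along titin, which pass stretch on to transcription factors, and through actin dynamics that free the coactivators of serum response factor. Loading raises small heat shock proteins that protect the sarcomere, and it engages the fibroblasts and the tendon junction that build the extracellular matrix. The contralateral leg is a common control in such designs, since it shares the genetics, diet and circulation of the treated leg.

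Con and NC muscles differed by less than 2-fold in most genes. Many members of lists of load, matrix and heat shock genes stood higher in Con. Ankrd1, Timp1, Tnc, Abra and Gm10226 rose in Con, and the pseudogenes Gm7327 and Snrpert fell. These 7 genes were 0.0453% of the genes tested and the only ones past an adjusted p of 0.05 by limma on log2(TPM + 0.5), with Benjamini-Hochberg adjustment over all 15437 genes. They depend on single samples: without Con sample 3, or without NC sample 1, no gene was called, with a lowest adjusted limma p of 0.113 and 0.111. Before adjustment, 813 genes were then higher and 746 lower without Con sample 3, and 718 higher and 583 lower without NC sample 1. With all 6 samples, 1115 genes were higher in Con before adjustment at the 0.05 threshold (7.22% of genes tested) and 814 were lower (5.27%). Both directions together made 12.5% of genes tested, above the share of 0.05 that this threshold covers when groups do not differ. That excess was not tested. In 1477 genes (9.57%) every Con sample was above every NC sample, and in 1274 genes (8.25%) every Con sample was below. These shares are the background for each group of genes described here, and "below the unadjusted threshold" means an unadjusted limma p under 0.05 throughout. The gene lists were chosen with earlier results of these data known, so their counts beside these shares are only a description. Differences are log2 differences, Con minus NC, of log2(TPM + 0.5), which understates the change of genes near 0.

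**Figure D1:**
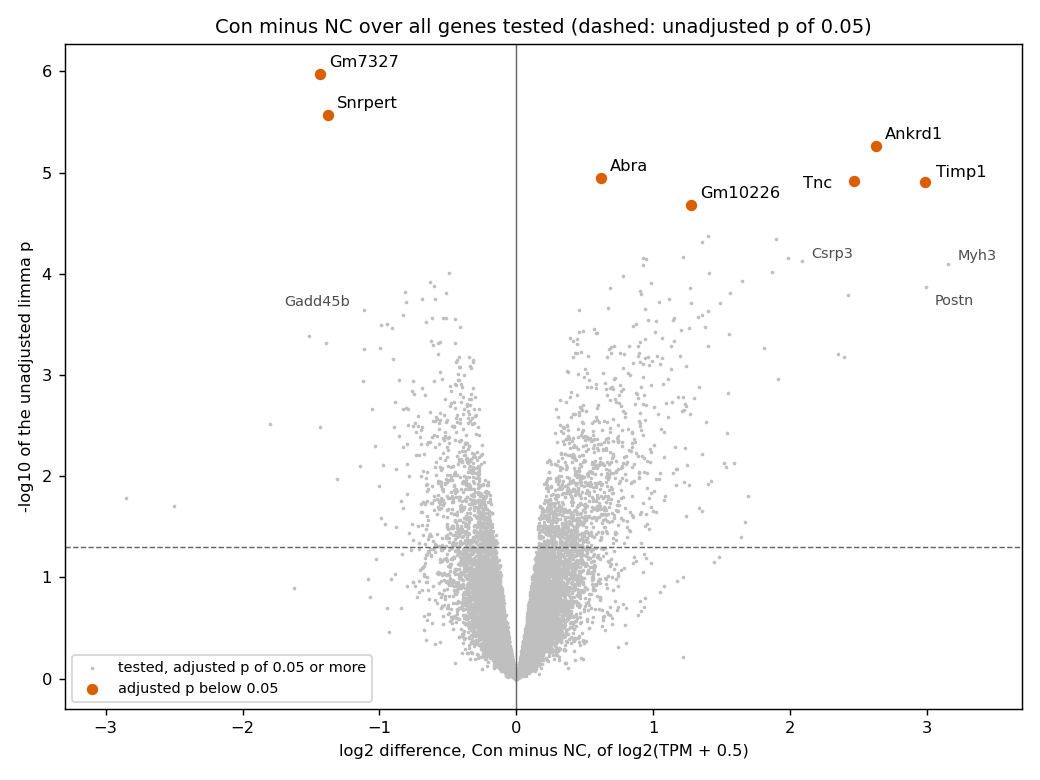
Each point is 1 of the 15437 genes, placed by its log2 difference, Con minus NC (horizontal axis), and by the negative log10 of its unadjusted limma p (vertical axis, dashed line at 0.05), with the 7 genes past the adjusted threshold in orange. Ankrd1, Timp1, Tnc, Abra and Gm10226 stand on the right, Gm7327 and Snrpert on the left, and most of the other points lie within 2-fold.

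The bulk of the profile was bounded within 2-fold, by a share that depended on the value added to TPM before the log. For 14176 genes (91.8%) the 95% interval of the difference lay within 2-fold in both directions, and the median difference over all genes was 0.01. That count was 12419 of 15437 genes with an added value of 0.1 TPM and 14820 with 1 TPM. Genes at least 2-fold apart and below the unadjusted threshold numbered 98 higher and 16 lower in Con. The SD of log2 values within a group had a median of 0.144 in Con and 0.135 in NC. The Jensen-Shannon distance between whole TPM profiles averaged 0.0822 over Con and NC pairs and 0.0710 over pairs within a group. The exact one-sided permutation p of that excess was 0.1, the smallest that 3 against 3 samples allow, so this test could not pass 0.05. On the first principal component of the 6 samples, with 31.3% of the variance, Con samples stood at 12.1, 18.9 and 18.9 and NC samples at -21.4, -9.46 and -19.0. On the next component, with 22.7%, Con sample 1 (28.1) and Con sample 2 (-21.0) were far apart. Mitochondrial chromosome transcripts took 21.5 ± 1.90% of TPM in Con and 22.0 ± 1.66% in NC (SD, n = 3 each; exact two-sided permutation p = 0.8). TPM keeps no read total, so depth is unknown, and 15214 to 15585 genes per sample reached 0.3 TPM.

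Genes that respond to stretch and load had higher levels in Con as a group. Of 25 such genes, all of them tested, 15 were higher in Con below the unadjusted threshold and 0 were lower, 13 had every Con sample above every NC sample, and 23 were higher by sign. The median difference was 0.52, against 0.01 over all genes. The called genes among them were Ankrd1 and Abra. Without any single sample the list still had a positive median and no member lower below the unadjusted threshold.

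Ankrd1 (ENSMUSG00000024803, 19:36111961-36120099, minus strand) encodes a titin-binding ankyrin repeat protein that muscle makes when stretched. Its level was 26.5, 33.2 and 33.0 TPM in Con, against 4.99, 6.36 and 2.91 TPM in NC. The 2 groups were far from overlapping, with a log2 difference of 2.63 ± 0.24 (SE; 95% interval 2.08 to 3.18; adjusted p = 0.0280 by limma). Abra (ENSMUSG00000042895, 15:41864076-41869720, minus strand) encodes an actin-binding protein of striated muscle that feeds serum response factor. It had 123, 115 and 123 TPM in Con and 77.1, 79.3 and 78.0 TPM in NC. This was a small change with very even replicates, a log2 difference of 0.62 ± 0.06 (SE; 0.47 to 0.76; adjusted p = 0.0319 by limma).

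Other members of the same group did not pass the adjusted threshold. Csrp3, the muscle LIM protein of the Z-disc, had 275, 526 and 481 TPM in Con and 101, 124 and 71.7 TPM in NC (log2 difference 2.09 ± 0.27 SE, adjusted p = 0.0734 by limma). Ankrd2, a relative of Ankrd1 that is abundant in slow fibers, had 542, 917 and 868 TPM in Con and 174, 266 and 149 TPM in NC (1.98 ± 0.26). Both genes were lowest in Con sample 1 and still above every NC sample there. Mustn1, a small nuclear protein of muscle and skeleton, had 67.2, 69.3 and 96.5 TPM in Con and 28.7, 34.3 and 24.1 TPM in NC (1.40 ± 0.17). Fhl1, a LIM domain protein bound to titin, had 1197, 1472 and 1440 TPM in Con and 647, 911 and 442 TPM in NC (1.09 ± 0.24). The secreted factor Ccn2 had 48.2, 22.5 and 37.4 TPM in Con and 11.1, 17.8 and 12.9 TPM in NC (1.30 ± 0.28). In Mustn1, Fhl1 and Ccn2 too the groups did not overlap. Further differences below the unadjusted threshold were seen for Enah (1.15), an actin assembly factor, Xirp1 (1.03) and Xirp2 (0.46), actin-binding proteins of the myotendinous junction and intercalated disc, Lmcd1 (0.90), Flnc (0.67), which crosslinks actin at the Z-disc, Nrap (0.36) and Ankrd23 (0.34). Ankrd23 shares 75% of its 50-base words with other annotated genes, so its level is uncertain.

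**Figure D2:**
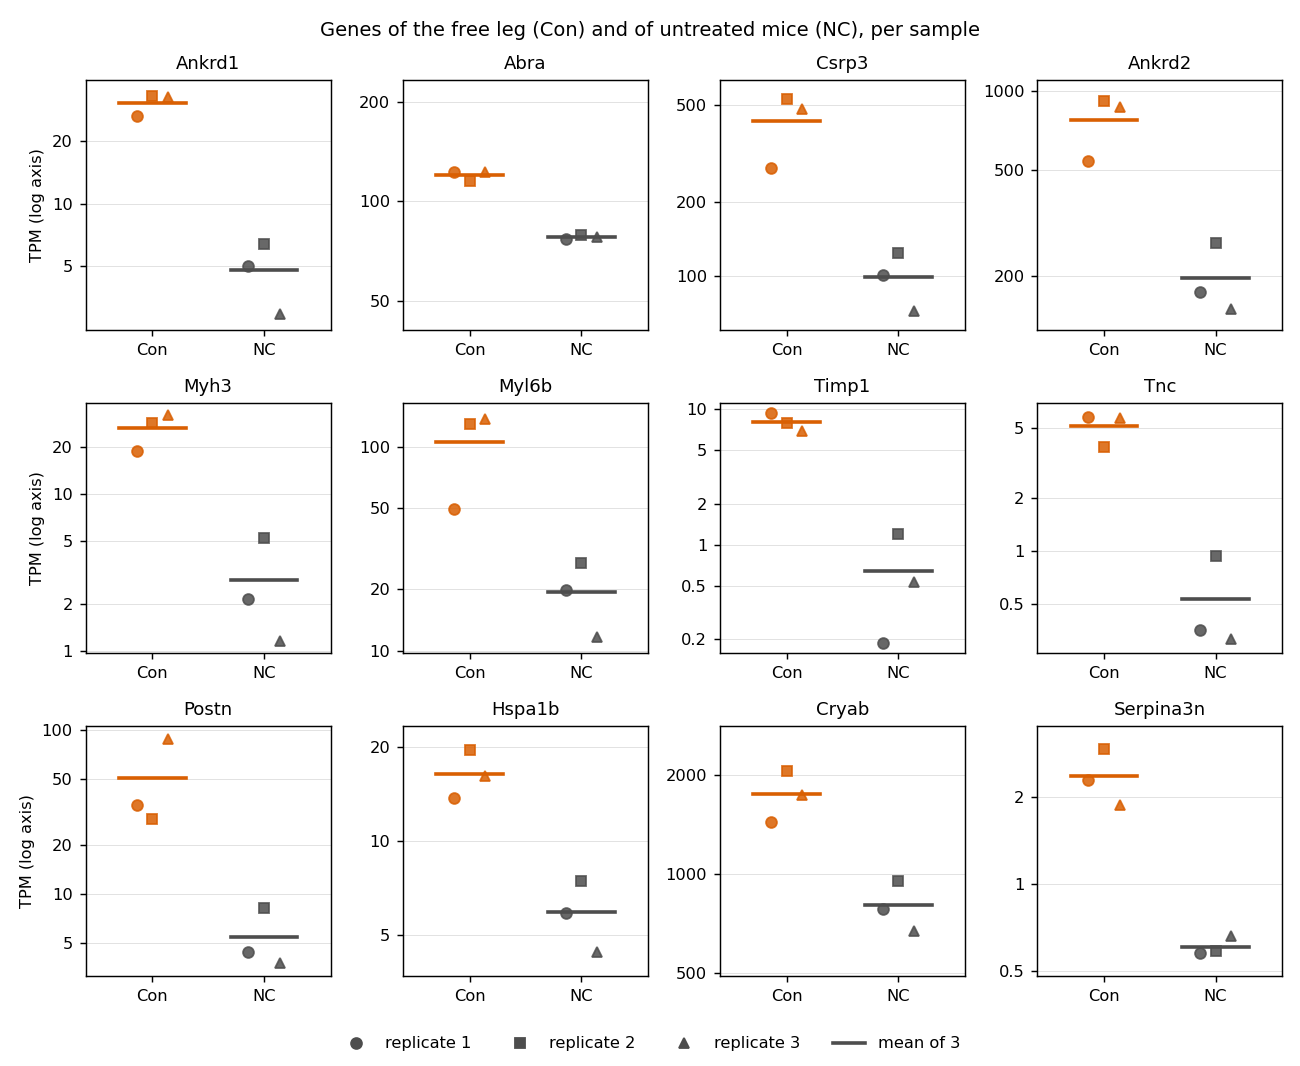
TPM on log axes for 12 genes in the 3 Con samples (orange, left in each panel) and the 3 NC samples (gray, right), with marker shape for the replicate number and a line for the mean of 3. In every panel the lowest Con sample lies above the highest NC sample, as in Ankrd1 at 26.5 against 6.36 TPM.

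The promoter of Ankrd1 is shown because this gene changed most clearly among the load sensors. The window is the RefSeq one of 300 bases (GRCm38.p6, chr19:36119795-36120094, minus strand, from 250 bases before the RefSeq start to 50 after it). The deposited gene start lies 255 bases upstream of the RefSeq start, so the whole window lies inside the gene as deposited. Capitals mark the matches to the MCAT element, the short motif bound by TEAD factors, searched as CATTCC and GGAATG.
Ankrd1: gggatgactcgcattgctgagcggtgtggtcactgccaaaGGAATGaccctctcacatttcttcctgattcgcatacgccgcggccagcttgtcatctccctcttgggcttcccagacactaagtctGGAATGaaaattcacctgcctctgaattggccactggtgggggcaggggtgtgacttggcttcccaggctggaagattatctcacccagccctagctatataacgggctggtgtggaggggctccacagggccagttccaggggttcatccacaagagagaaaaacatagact
The window holds 2 matches, at -210 and -123 from the RefSeq start, and both lie downstream of the deposited start. An MCAT match was present in 7 of the 22 load sensors with a RefSeq window (31.8%) and in 14.7% of the 32851 windows of all genes. A match says only that the letters are there.

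With all 6 samples, the slow and fast sarcomere lists had smaller medians than the load sensors. Of 15 slow sarcomere genes, 4 were higher in Con below the unadjusted threshold and 0 were lower, with a median of 0.17. Of 16 fast sarcomere genes 1 was higher and 1 lower (median 0.05). The summed level of the slow list was 4824, 11755 and 11307 TPM in Con and 8076, 10340 and 4902 TPM in NC, so the groups overlapped, and Con sample 1 was the lowest of the 6. The list holds genes that other fibers also use, such as Actn2, and the part of slow fiber content in the load sensor difference was not tested. Csrp3 and Ankrd2 too were lowest among the Con samples in Con sample 1, and above every NC sample there. Without Con sample 1, 7 slow genes were higher below the unadjusted threshold and all 15 were higher by sign. The slow median was then 0.67, against 0.61 for the load sensors. Without NC sample 3 the slow median was -0.02.

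Myh3, the embryonic myosin heavy chain that adult muscle makes again when fibers grow or regenerate, had 18.7, 28.4 and 31.8 TPM in Con and 2.14, 5.25 and 1.16 TPM in NC. It had the largest difference among genes with a mean of 1 TPM or more, separate groups and an unadjusted p under the threshold, at 3.16 ± 0.42 (SE; 95% interval 2.19 to 4.13; adjusted p = 0.0734 by limma). Myl6b, an essential light chain of slow muscle and nonmuscle myosin, had 49.6, 129 and 138 TPM in Con and 19.8, 26.8 and 11.6 TPM in NC (2.35 ± 0.42). Con sample 1 was the lowest Con sample for both genes. Myh3 belongs to a list of embryonic and cardiac sarcomere genes. Of the 7 tested there, 2 were higher and 0 lower below the unadjusted threshold, with a median of 0.05. In that list Tnnt2 differed by 0.81 and Actc1 by -0.49. Without Con sample 1 the list had 3 higher and 1 lower, with a median of 0.54. Actn2, the alpha-actinin of all fiber types, had 1213, 1233 and 1280 TPM in Con and 592, 977 and 484 TPM in NC (0.92 ± 0.23). Myom3, a myomesin of the M-band, had a difference of 1.05, with 75.7, 130 and 108 TPM in Con and 45.1, 77.6 and 33.9 TPM in NC, where Con sample 1 lay below NC sample 2. The main fast myosin, Myh4, had 25370, 28279 and 24545 TPM in Con and 26058, 25330 and 26576 TPM in NC, a difference of 0.00 with an interval of -0.34 to 0.34. The slow myosin Myh7 had 400, 1356 and 1325 TPM in Con and 972, 1347 and 596 TPM in NC, and its interval of -1.18 to 1.10 spans a 2-fold difference in both directions. Myh2, the fast oxidative myosin, had 2610, 2130 and 2161 TPM in Con and 1193, 2182 and 904 TPM in NC (0.78 ± 0.29), with NC sample 2 inside the range of Con.

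Extracellular matrix genes made the other large group. Of 31 matrix glycoproteins and crosslinking enzymes, all tested, 19 were higher in Con below the unadjusted threshold and 0 were lower, 18 had separate groups, and the median was 0.72. The called genes among them were Timp1 and Tnc. Any member that passed the filter only through the Con samples had to be higher there. With a filter of 1 TPM, 16 of 28 were higher and 0 lower (median 0.69). Of 20 collagens tested, 8 were higher and 0 lower, 19 were higher by sign, and the median was 0.61. The collagen count rests on samples: it was 15 without Con sample 2 and 4 or 5 without Con sample 1, Con sample 3, NC sample 1 or NC sample 3, and 3 in the fit of all 9 samples.

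Timp1 (ENSMUSG00000001131, X:20870166-20874735, plus strand) encodes a secreted inhibitor of matrix metalloproteinases. Its level was 9.32, 7.88 and 6.91 TPM in Con, against 0.190, 1.204 and 0.534 TPM in NC. The change was 2.99 ± 0.30 on the log2 scale (SE; 95% interval 2.28 to 3.696; adjusted p = 0.0319 by limma). Tnc (ENSMUSG00000028364, 4:63959785-64047015, minus strand) encodes tenascin C, a matrix glycoprotein of tendon and of muscle under load or repair. It had 5.76, 3.90 and 5.68 TPM in Con and 0.36, 0.937 and 0.317 TPM in NC (2.47 ± 0.25 SE; 1.89 to 3.05; adjusted p = 0.0319 by limma). For both genes NC sample 2 was the highest NC sample and still well below every Con sample.

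Postn, periostin, which binds collagen in tissues under tension, had 34.8, 28.7 and 88.7 TPM in Con and 4.43, 8.14 and 3.77 TPM in NC (2.99 ± 0.43, adjusted p = 0.0734 by limma). Cilp, a matrix protein first known from cartilage, had 24.2, 20.5 and 53.1 TPM in Con and 4.20, 7.43 and 4.29 TPM in NC (2.43 ± 0.36). Con sample 3 was the highest in both genes, and the groups were separate with or without it. Lox, the enzyme that crosslinks collagen and elastin, had 8.25, 4.16 and 7.30 TPM in Con and 1.15, 1.43 and 1.41 TPM in NC (1.90 ± 0.23). The proteoglycan Bgn had 75.8, 48.7 and 91.6 TPM in Con and 20.2, 28.4 and 22.0 TPM in NC (1.56 ± 0.23). Col8a1, a short-chain collagen, had 4.38, 3.74 and 7.28 TPM in Con and 1.21, 1.48 and 1.04 TPM in NC (1.65 ± 0.23). The groups did not overlap in any of these genes. Cthrc1, a secreted protein of activated fibroblasts, had 1.46, 1.57 and 6.07 TPM in Con and 0.134, 0.0767 and 0 TPM in NC, and its difference of 2.40 depends on the added 0.5. Col1a1, the main fibrillar collagen, was less even, with 204, 32.9 and 90.2 TPM in Con and 17.6, 46.0 and 22.4 TPM in NC (1.67 ± 0.62). Con sample 2 fell between the NC samples there. Col3a1 (0.99), Fn1 (1.15), Thbs1 (1.39), Thbs4 (1.60), Mfap4 (1.92), Col12a1 (1.52) and Ltbp2 (1.01) were also higher below the unadjusted threshold.

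**Figure D3:**
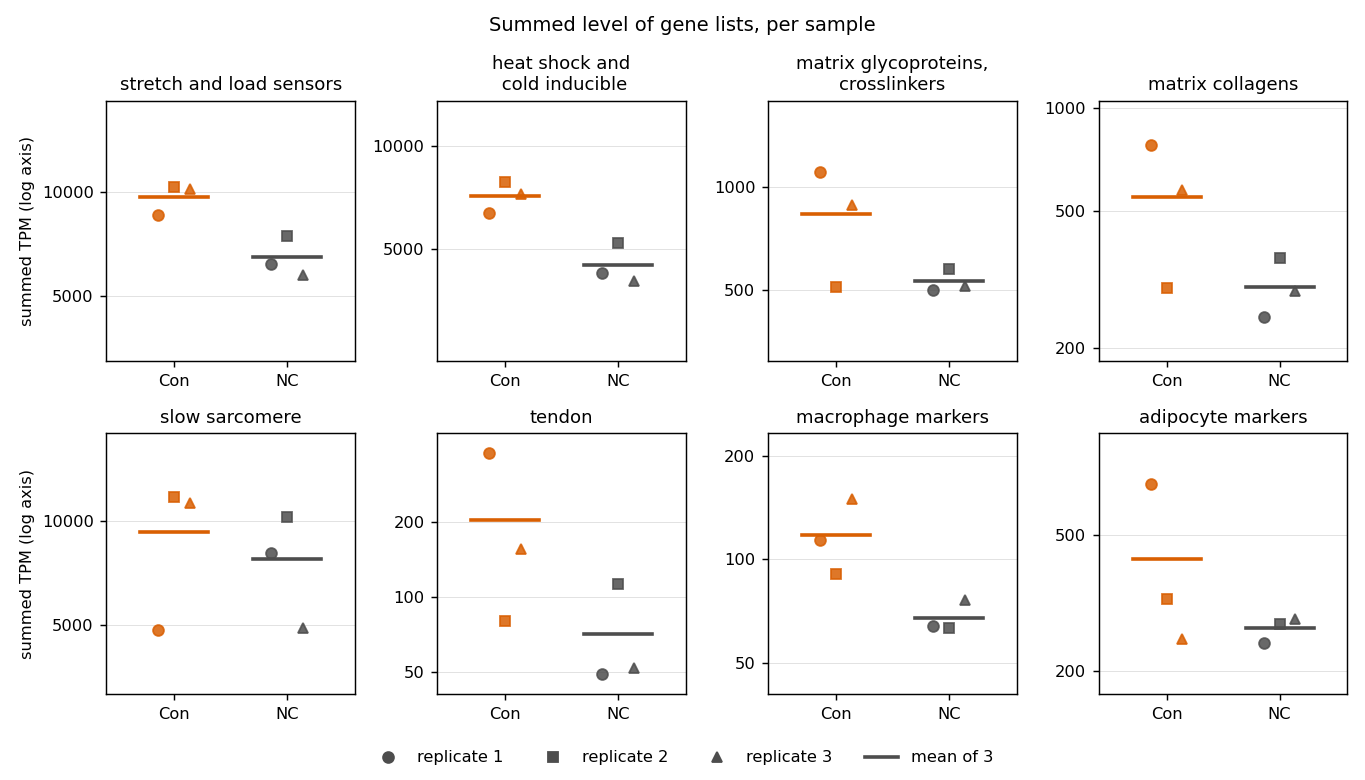
Summed TPM of the members of 8 gene lists (log axes) in the 3 Con samples (orange, left in each panel) and the 3 NC samples (gray, right), with marker shape for the replicate number and a line for the mean. The load sensor sums are 8612 to 10351 TPM in Con and 5754 to 7486 TPM in NC, while tendon and adipocyte sums are highest in Con sample 1.

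Tendon genes and marker genes of other cell types were set beside the matrix result, since bulk muscle holds connective tissue, vessels and nerve, and a higher level cannot be told apart from more cells of a type. Of 12 tendon genes 4 were higher in Con below the unadjusted threshold, with sums of 79.8 to 378 TPM in Con and 48.8 to 112 TPM in NC. Con sample 1 held the highest sum, and without it the tendon median was -0.43 with 4 genes lower. Tnmd, tenomodulin, the defining tendon gene, was 18.1, 0.887 and 2.42 TPM in Con and 1.75, 6.05 and 1.93 TPM in NC. The tendon factor Scx had 13.8, 16.5 and 16.6 TPM in Con and 9.43, 11.4 and 7.96 TPM in NC (0.69 ± 0.14), with Con sample 1 the lowest of the Con samples. Without Con sample 1, 18 of the 31 matrix glycoproteins were higher and 2 lower below the unadjusted threshold (median 0.75), and Timp1 and Tnc were both called. The part of tendon tissue in the matrix difference was not tested. The tendon list holds Cilp, given above with the matrix genes, and the matrix and fibroblast lists have the same lowest value (-0.44). Counts of these lists are therefore not fully separate observations. Of 10 fibroblast and fibro-adipogenic markers 0 were below the unadjusted threshold in either direction (median -0.10), but 3 were higher without Con sample 2, with a median of 0.15. Of 10 endothelial markers 0 were below it (median -0.13), and 5 were lower without NC sample 3. Adipocyte marker sums were 248 to 702 TPM in Con and 241 to 284 TPM in NC, with Con sample 1 again highest, and 6 of 10 markers were higher below the unadjusted threshold without Con sample 3, against 0 with all samples. Adipoq, an adipocyte hormone, had 24.7, 5.45 and 3.57 TPM in Con and 2.83, 4.44 and 4.74 TPM in NC. Of 10 Schwann cell markers 0 were higher and 2 lower, with a median of -0.41, and leaving out Con sample 1 gave 6 lower, while leaving out Con sample 2 or NC sample 3 gave 0. The keratins Krt1, Krt5, Krt14 and Krt15 and the liver genes Apoa1, Ttr and Mup20 were listed at 0 in all 6 samples. Erythroid markers, a sign of blood, summed to 157 to 310 TPM in Con and 244 to 347 TPM in NC. Of 16 housekeeping genes 1 was higher and 0 lower (median 0.06), and 3 were higher without Con sample 1. The skeletal muscle fiber markers summed to 136784 to 156944 TPM in Con and 131137 to 150298 TPM in NC.

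Most heat shock genes had higher levels in Con. Of 23 heat shock and cold inducible genes, all tested, 16 were higher in Con below the unadjusted threshold and 1 was lower, 15 had every Con sample above every NC sample, and the median was 0.47. Their sum was 6366 to 7889 TPM in Con and 4055 to 5217 TPM in NC. None of the 23 passed the adjusted threshold.

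The inducible Hsp70 gene Hspa1b had 13.7, 19.5 and 16.1 TPM in Con and 5.87, 7.44 and 4.42 TPM in NC (1.41 ± 0.19 SE; 95% interval 0.96 to 1.86; adjusted p = 0.0734 by limma). Its near copy Hspa1a differed by 1.22 ± 0.26. These 2 genes share 62.3% and 66.3% of their 50-base words, so the split of reads between them is uncertain. Cryab, alpha B-crystallin, a small heat shock protein that binds desmin and titin, had 1439, 2059 and 1738 TPM in Con and 786, 954 and 671 TPM in NC (1.12 ± 0.17). Hspb7, a small heat shock protein of heart and muscle that binds filamin C, had 458, 727 and 595 TPM in Con and 207, 313 and 166 TPM in NC (1.40 ± 0.25). Hspb1 had 245, 424 and 347 TPM in Con and 168, 199 and 172 TPM in NC (0.88 ± 0.18). In each of these genes the groups were separate, Con sample 1 was the lowest Con sample and Con sample 2 the highest. The cochaperones and chaperones with a wider tissue range differed less: Hsph1 had 56.9, 47.6 and 45.5 TPM in Con and 31.7, 35.3 and 32.2 TPM in NC (0.59 ± 0.10), and differences were 0.68 for Hsp90aa1, 0.47 for Bag3, which couples Hsp70 to filamin turnover, and 0.23 for Hspa8. Hspb1 (50.1%), Hsp90aa1 (47.5%) and Hspa8 (39.4%) share 50-base words with pseudogenes, so their levels are less certain. The member lower in Con was Cirbp, an RNA-binding protein made in the cold, with 43.3, 47.0 and 51.7 TPM in Con and 63.6, 61.8 and 53.6 TPM in NC (-0.33 ± 0.10). The other cold inducible gene of the list, Rbm3, overlapped, with an interval of -0.48 to 0.46.

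Promoters of heat shock genes from this group are shown because members of this list were higher in Con together. The windows are from RefSeq (GRCm38.p6, 300 bases, 250 before the start to 50 after it), and capitals mark each match to the core of a heat shock element, searched as TTCNNGAA and GAANNTTC on both strands. The windows are Hspa1b at chr17:34959189-34959488 (minus strand), Hsph1 at chr5:149636287-149636586 (minus strand) and Hspb1 at chr5:135887669-135887968 (plus strand).
Hspa1b: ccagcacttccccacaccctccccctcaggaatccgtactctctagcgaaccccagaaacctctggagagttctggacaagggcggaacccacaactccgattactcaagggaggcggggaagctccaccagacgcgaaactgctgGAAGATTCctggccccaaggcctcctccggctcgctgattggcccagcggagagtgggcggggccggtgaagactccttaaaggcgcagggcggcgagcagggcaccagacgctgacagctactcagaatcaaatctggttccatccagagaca
Hsph1: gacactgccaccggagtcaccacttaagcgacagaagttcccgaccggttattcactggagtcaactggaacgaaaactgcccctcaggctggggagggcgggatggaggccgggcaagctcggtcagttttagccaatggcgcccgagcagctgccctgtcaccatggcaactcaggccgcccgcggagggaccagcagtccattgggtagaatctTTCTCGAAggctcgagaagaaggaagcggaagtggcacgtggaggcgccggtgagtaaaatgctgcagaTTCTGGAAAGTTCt
Hspb1: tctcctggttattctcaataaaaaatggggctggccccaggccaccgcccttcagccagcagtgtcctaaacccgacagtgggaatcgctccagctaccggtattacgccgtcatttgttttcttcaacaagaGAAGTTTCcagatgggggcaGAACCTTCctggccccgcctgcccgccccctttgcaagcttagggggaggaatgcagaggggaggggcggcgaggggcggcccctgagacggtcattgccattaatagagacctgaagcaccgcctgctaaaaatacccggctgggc
Hspa1b has 1 match, at -104. Hspb1 has 2, at -117 and -97, and Hsph1 has 3, at -33, 37 and 42, the last pair overlapping each other. A match was present in 8 of the 18 listed heat shock genes with a window (44.4%), in 6 of 22 load sensors (27.3%), in 0 of 18 matrix glycoprotein genes with one and in 15.1% of all 32851 windows. No match says only that these letters are not in this window.

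**Figure D4:**
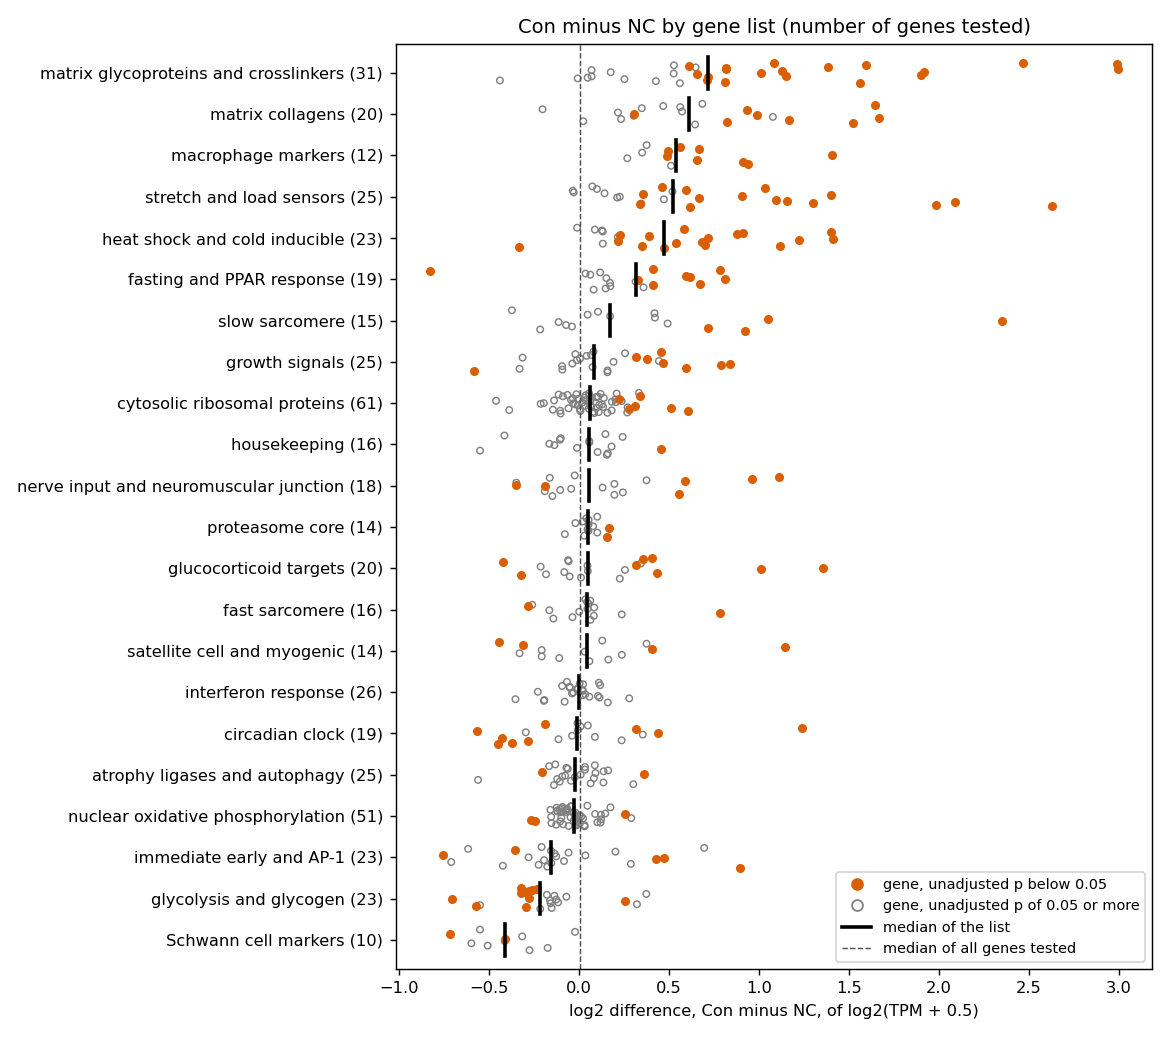
Each point is the log2 difference, Con minus NC, of 1 gene in the list named on the left (number of genes tested in brackets), in orange where the unadjusted limma p is under 0.05, with a bar for the list's median and a dashed line for the median of all genes. The medians of the load sensors (0.52), matrix glycoproteins (0.72) and heat shock genes (0.47) lie right of the dashed line at 0.01, and that of glycolysis and glycogen genes (-0.21) lies left of it.

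Macrophage and acute phase genes were higher in Con at low levels. All 12 macrophage markers were higher by sign and 8 were below the unadjusted threshold, with a median of 0.54 and sums of 90.7 to 150 TPM in Con and 62.9 to 76.3 TPM in NC. The count of 8 was 5 without Con sample 3 and 4 without NC sample 2, and 0 in the fit of all 9 samples. Cd68, a lysosomal glycoprotein of macrophages, had 4.34, 6.85 and 6.58 TPM in Con and 1.35, 2.36 and 2.06 TPM in NC (1.40 ± 0.22, adjusted p = 0.0785 by limma). The complement genes C1qa and C1qb differed by 0.94 and 0.91. Of 19 acute phase and neutrophil genes only 6 passed the filter on low values, some of them only through the Con samples where they were high, so their values are given with no count. Serpina3n, a serine protease inhibitor of the acute phase, had 2.29, 2.93 and 1.87 TPM in Con and 0.576, 0.589 and 0.659 TPM in NC (1.35 ± 0.17, adjusted p = 0.0734 by limma). Its NC samples were within a narrow range and its lowest Con sample was well above them. The monocyte chemokine Ccl7 had 0.788, 0.832 and 1.02 TPM in Con and 0.0453, 0.186 and 0 TPM in NC. Haptoglobin, Hp, had 14.3, 10.8 and 5.98 TPM in Con and 3.36, 4.76 and 5.14 TPM in NC (1.08 ± 0.29). Of 26 interferon response genes 0 were below the unadjusted threshold (median 0.00, range -0.35 to 0.28), and at most 2 were in either direction with a sample left out. Whether the macrophage markers account for any of the matrix difference was not tested.

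Cell cycle genes were near the filter limit, with 12 of 19 tested, and those that passed only through the Con samples had to be higher there, so no count is given. Mki67, a marker of dividing cells, had 0.472, 0.346 and 0.483 TPM in Con and 0.0521, 0.0511 and 0.0225 TPM in NC. Mymk, which myoblasts need to fuse, had 0.510, 0.840 and 0.702 TPM in Con and was listed at 0 in NC samples 1 and 3 and at 0.105 TPM in NC sample 2. The satellite cell factor Pax7 was lower in Con, with 0.986, 0.994 and 0.966 TPM in Con and 1.65, 1.82 and 1.14 TPM in NC (-0.44 ± 0.17), and Myod1 had 16.3, 13.6 and 14.7 TPM in Con and 17.9, 17.7 and 20.0 TPM in NC (-0.31 ± 0.09). All Con samples were below all NC samples for both. Of the 14 satellite cell and myogenic genes tested, 2 were higher and 2 lower below the unadjusted threshold (median 0.05), and 4 were higher without Con sample 1. Mymk passed the filter only through the Con samples, so it had to be higher there. With a filter of 1 TPM, 1 of 11 was higher and 2 were lower.

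Genes of nerve input were mixed. Of 18 tested, 4 were higher and 2 lower below the unadjusted threshold, with a median of 0.05, and without Con sample 1 the count higher was 7. Ncam1, the adhesion molecule that fibers spread over their surface when nerve contact is lost, had 7.36, 9.67 and 8.86 TPM in Con and 4.80, 4.77 and 3.11 TPM in NC (0.96 ± 0.18). Runx1, a transcription factor that denervated muscle raises, had 1.59, 1.21 and 2.196 TPM in Con and 0.292, 0.626 and 0.572 TPM in NC (1.11 ± 0.22). Chrnb1, a subunit of the acetylcholine receptor, had 28.7, 39.5 and 41.4 TPM in Con and 21.7, 28.05 and 23.8 TPM in NC (0.56 ± 0.15). Each of these was higher in all 3 Con samples than in any NC sample, though by little for Chrnb1. Equally, 3 genes of the list had every Con sample below every NC sample. By sign 9 of the 18 were higher and 9 lower, with a lowest difference of -0.35.

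Many genes of glycolysis had lower levels in Con. Of 23 glycolysis and glycogen genes, all tested, 10 were lower in Con below the unadjusted threshold and 1 was higher, 11 had every Con sample below every NC sample, and the median was -0.21. The count of 10 was 6 without Con sample 3 or NC sample 3 and 4 without NC sample 1. Pfkfb3, which makes the activator of phosphofructokinase, had 241, 195 and 165 TPM in Con and 398, 268 and 315 TPM in NC (-0.70 ± 0.17). Fbp2, the muscle fructose bisphosphatase, had 32.6, 36.9 and 41.9 TPM in Con and 53.9, 53.4 and 58.0 TPM in NC (-0.57 ± 0.10). The abundant enzymes Tpi1 (-0.32), Pfkm (-0.28) and Pygm (-0.26), muscle glycogen phosphorylase, had separate groups and small differences. The member higher in Con was hexokinase Hk2, with a difference of 0.25.

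Of 19 fasting and PPAR response genes tested, 8 were higher and 1 lower below the unadjusted threshold, with a median of 0.32, and the count of 8 was 3 to 5 without Con sample 1, Con sample 2, NC sample 1 or NC sample 3. Ucp2, a mitochondrial carrier, had 6.63, 6.13 and 6.63 TPM in Con and 3.18, 3.87 and 3.62 TPM in NC (0.78 ± 0.11). Pdk4, which shuts pyruvate out of the citric acid cycle, had 405, 440 and 187 TPM in Con and 144, 242 and 176 TPM in NC, so Con sample 3 lay among the NC samples. The lower member was Txnip, an inhibitor of glucose uptake, with 259, 190 and 225 TPM in Con and 439, 401 and 350 TPM in NC (-0.83 ± 0.13, adjusted p = 0.0785 by limma). Bdh1, the enzyme of ketone body use, had 45.8, 55.2 and 48.1 TPM in Con and 21.9, 33.0 and 19.1 TPM in NC (1.03 ± 0.19). This was the largest difference among 33 genes for oxidizing acetyl-CoA, fatty acids and ketone bodies, of which 2 were higher and 0 lower (median -0.03), with 5 higher without NC sample 2 and 4 lower without Con sample 1. Of 51 nuclear genes of oxidative phosphorylation 1 was higher and 2 lower (median -0.03, range -0.27 to 0.29, 4 lower without NC sample 2), and of 13 mitochondrial chromosome mRNAs 0 were below the unadjusted threshold (median -0.01).

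Genes of muscle breakdown had medians near 0 and overlapping groups for the ubiquitin ligases best known in atrophy. Of 25 atrophy ligase and autophagy genes, 1 was higher and 1 lower below the unadjusted threshold (median -0.02). Fbxo32, the ubiquitin ligase atrogin-1, had 65.9, 113 and 54.7 TPM in Con and 93.2, 80.6 and 63.9 TPM in NC, a difference of -0.08 with an interval of -0.68 to 0.53. Trim63, the ubiquitin ligase MuRF1, had 191, 382 and 199 TPM in Con and 233, 222 and 233 TPM in NC (0.09, interval -0.47 to 0.65). In both genes Con sample 2 was the highest Con sample, and the intervals still allow differences of that size in either direction. Without Con sample 2, 5 genes of the list were lower below the unadjusted threshold. Of 14 proteasome genes 2 were higher and 0 lower, with differences from -0.08 to 0.17, and 0 were higher without Con sample 2, Con sample 3, NC sample 1 or NC sample 2. Of 61 cytosolic ribosomal protein genes 6 were higher and 0 lower (median 0.06), and 19 were higher without Con sample 1.

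Clock and stress genes held members in both directions. Of 19 clock genes 3 were higher and 6 lower below the unadjusted threshold (median -0.01), with 3 lower without Con sample 2 or NC sample 1 or in the fit of all 9 samples. Per2, a repressor in the clock loop, had 4.995, 4.74 and 7.89 TPM in Con and 1.71, 1.67 and 3.36 TPM in NC (1.24 ± 0.27). Nr1d1, which represses Arntl, had 105, 86.6 and 92.2 TPM in Con and 161, 149 and 114 TPM in NC (-0.56 ± 0.14). Sample 3 was the highest of its group for Per2 in both groups, and the hour of collection is not given in the sources used here. Cry1 (-0.43), Arntl (-0.45) and Bhlhe40 (-0.37) were lower and Per1 (0.32) higher below the unadjusted threshold. An E-box, searched as CACGTG, was in 5 of the 16 clock genes with a RefSeq window (31.2%) and in 7.15% of all windows. All listed clock genes with a window were searched whatever their difference, so this share does not bear on Con and NC. Of 20 glucocorticoid targets 6 were higher and 2 lower (median 0.05), with 1 higher when NC sample 1 was left out, 3 higher when NC sample 2 was left out, and 5 lower when Con sample 2 was left out. The metallothionein Mt2 had 14.1, 43.6 and 22.0 TPM in Con and 7.48, 8.66 and 11.3 TPM in NC (1.35 ± 0.36), with 45.8% of its 50-base words shared with other genes. Among 23 immediate early genes 3 were higher and 2 lower (median -0.15, range -0.76 to 0.90), and 8 were lower without NC sample 3. Atf3, a stress transcription factor, stood higher in Con, with differences of 0.67 to 1.19 when a sample was left out. The stress genes given next were lower. Gadd45b, a stress gene that answers growth arrest and DNA damage signals, had 13.8, 10.3 and 11.5 TPM in Con and 33.6, 24.3 and 21.7 TPM in NC (-1.11 ± 0.17, adjusted p = 0.0784 by limma). Klf2, an endothelial and leukocyte factor raised by blood flow, had 29.7, 21.3 and 25.2 TPM in Con and 43.6, 50.1 and 36.1 TPM in NC (-0.76 ± 0.15). Every Con sample was below every NC sample in both.

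The genes called lower in Con were annotated as pseudogenes, copies of other genes. Gm7327 (ENSMUSG00000050900, X:61785381-61786032, plus strand) is annotated as a processed pseudogene, and 55.7% of its 50-base words occur in other genes, among them Eif4e. It had 5.51, 5.63 and 4.79 TPM in Con and 14.4, 16.8 and 14.5 TPM in NC (-1.44 ± 0.10 SE; adjusted p = 0.0165 by limma). Eif4e itself, the cap-binding factor of translation, had 31.1, 30.8 and 32.5 TPM in Con and 33.6, 33.1 and 37.7 TPM in NC. Snrpert (ENSMUSG00000082044, 2:131322088-131322366, minus strand) is annotated as a processed pseudogene with 55.7% shared words, among them those of Snrpe, a core protein of the spliceosome. It had 4.63, 5.81 and 5.68 TPM in Con and 15.6, 13.4 and 15.2 TPM in NC (-1.38 ± 0.11 SE; adjusted p = 0.0209 by limma). Snrpe was instead higher in Con, with 22.6, 16.5 and 18.6 TPM in Con and 5.39, 10.53 and 11.03 TPM in NC. The same opposite pattern was seen in Rpl15-ps3, all of whose words occur in Rpl15. Rpl15-ps3 had 49.0, 46.9 and 15.6 TPM in Con and 76.6, 81.7 and 89.5 TPM in NC, and Rpl15 had 89.0, 114 and 133 TPM in Con and 77.3, 66.1 and 74.3 TPM in NC. Gm10226 (ENSMUSG00000067929, 17:21691860-21692114, plus strand), which rose, shares 52.9% of its words with Zfp51 and Zfp983. It had 1.65, 1.43 and 1.38 TPM in Con and 0.325, 0.297 and 0.341 TPM in NC (1.28 ± 0.14 SE; adjusted p = 0.0466 by limma). The levels of these 4 genes are uncertain, because the split of reads between near copies was not tested.

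Other genes with large differences in the lower direction were E130102H24Rik, at 0, 7.81 and 0.204 TPM in Con and 12.98, 8.96 and 8.198 TPM in NC (-2.86 ± 0.94), and Crip3, at 1.54, 0.477 and 1.38 TPM in Con and 4.24, 5.01 and 2.32 TPM in NC (-1.43 ± 0.34). Dkk2, a secreted modulator of Wnt signaling, had 1.69, 0.940 and 1.54 TPM in Con and 4.78, 2.97 and 3.09 TPM in NC (-1.12 ± 0.22). The groups were separate in all 3 of these genes, and within Con nearly all of E130102H24Rik came from Con sample 2.

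The immobilized leg was set beside both controls in a fit of all 9 samples, where Dis differed from Con in 2785 genes (18% of genes tested) and from NC in 2714 genes (17.6%) at an adjusted limma p under 0.05. The comparisons share the Dis samples, so their values are given side by side. A set of 22 genes was picked for a call or for one of the largest differences between Con and NC, and not all are described above. Of these, 10 were called in Dis minus Con and 6 in Dis minus NC. The count of 6 was 3 without NC sample 1 and 4 without NC sample 3. These genes were chosen for extreme Con minus NC values, which enter Dis minus Con through the Con samples and Dis minus NC through the NC samples, so the counts and the values that follow are a description. In the same 9-sample fit, Con minus NC had 12 load sensors, 17 matrix glycoproteins and 10 heat shock genes higher below the unadjusted threshold, 4 fasting genes and 1 glucocorticoid target higher, and 4 glycolysis genes lower.

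For some genes Dis was far from Con and close to NC. Myh3 had 1.01, 1.70 and 2.49 TPM in Dis, with a difference of -3.61 ± 0.43 from Con (adjusted p = 0.00337 by limma) and of -0.45 ± 0.43 from NC (adjusted p = 0.479). Postn had 2.57, 10.7 and 5.50 TPM in Dis, at -2.93 ± 0.53 from Con (adjusted p = 0.00934 by limma) and 0.06 ± 0.53 from NC (adjusted p = 0.944). Tnc had 0.257, 1.21 and 0.983 TPM in Dis, at -2.16 ± 0.33 from Con (adjusted p = 0.00599 by limma) and 0.31 ± 0.33 from NC (adjusted p = 0.534). In these 3 genes Dis fell below Con and its difference from NC did not pass the threshold. Ankrd2 had 69.2, 221 and 80.6 TPM in Dis, at -2.81 from Con (adjusted p = 0.0054 by limma) and -0.83 ± 0.42 from NC (adjusted p = 0.188). Gm7327 had 17.6, 15.8 and 17.8 TPM in Dis, at 1.59 from Con (adjusted p = 0.00151 by limma) and 0.16 from NC (adjusted p = 0.328).

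In other genes Dis differed from both controls, by more against Con. Csrp3 had 14.5, 43.0 and 20.8 TPM in Dis, at -4.10 ± 0.39 from Con (adjusted p = 0.00271 by limma) and -2.01 ± 0.39 from NC (adjusted p = 0.0109). Bdh1 had 4.76, 8.16 and 7.71 TPM in Dis, at -2.80 from Con (adjusted p = 0.00271 by limma) and -1.77 from NC (adjusted p = 0.00367). Cryab had 476, 488 and 355 TPM in Dis, at -1.99 from Con (adjusted p = 0.00271 by limma) and -0.87 from NC (adjusted p = 0.0147). Hspa1b had 2.70, 3.84 and 3.21 TPM in Dis, at -2.17 from Con (adjusted p = 0.00271 by limma) and -0.76 from NC (adjusted p = 0.033). For Csrp3, Cryab, Hspa1b and Bdh1 the Con level stood on the far side of NC from Dis.

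In a further set of genes Dis and Con were on the same side of NC. Ankrd1 had 16.1, 92.9 and 24.2 TPM in Dis, at 0.11 ± 0.54 from Con (adjusted p = 0.905 by limma) and 2.74 ± 0.54 from NC (adjusted p = 0.0118). Per2 had 8.45, 8.21 and 10.03 TPM in Dis, at 0.59 from Con (adjusted p = 0.134 by limma) and 1.82 from NC (adjusted p = 0.00428). Chrnb1 had 79.7, 95.9 and 65.5 TPM in Dis, at 1.13 from Con (adjusted p = 0.00636 by limma) and 1.68 from NC (adjusted p = 0.00274). Both legs of the immobilized mice were above NC in these genes. Fbxo32, with 177, 486 and 190 TPM in Dis, gave nearly the same answer with either control, 1.76 ± 0.39 from Con (adjusted p = 0.0179 by limma) and 1.69 ± 0.39 from NC (adjusted p = 0.0197). Trim63, with 492, 1623 and 406 TPM in Dis, lay 1.49 ± 0.47 from Con (adjusted p = 0.0535 by limma) and 1.58 ± 0.47 from NC (adjusted p = 0.0453). The gap between its estimates is small beside their error, although only the comparison with NC passed the threshold. Dis sample 2 was the highest of the 9 samples for Ankrd1, Fbxo32 and Trim63.

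Over whole lists the choice of control moved the median as follows. The load sensors had a median of -0.43 in Dis minus Con and 0.02 in Dis minus NC, the matrix glycoproteins -0.58 and 0.07, the collagens -0.76 and -0.08, and the heat shock genes -0.46 and -0.12. The atrophy and autophagy genes had 0.58 in Dis minus Con and 0.52 in Dis minus NC, the proteasome genes 0.57 and 0.62, and the slow sarcomere genes -1.50 and -1.15. The atrophy and proteasome medians were thus nearly the same with either control, and those of the other 5 lists were closer to 0 with NC.

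**Figure D5:**
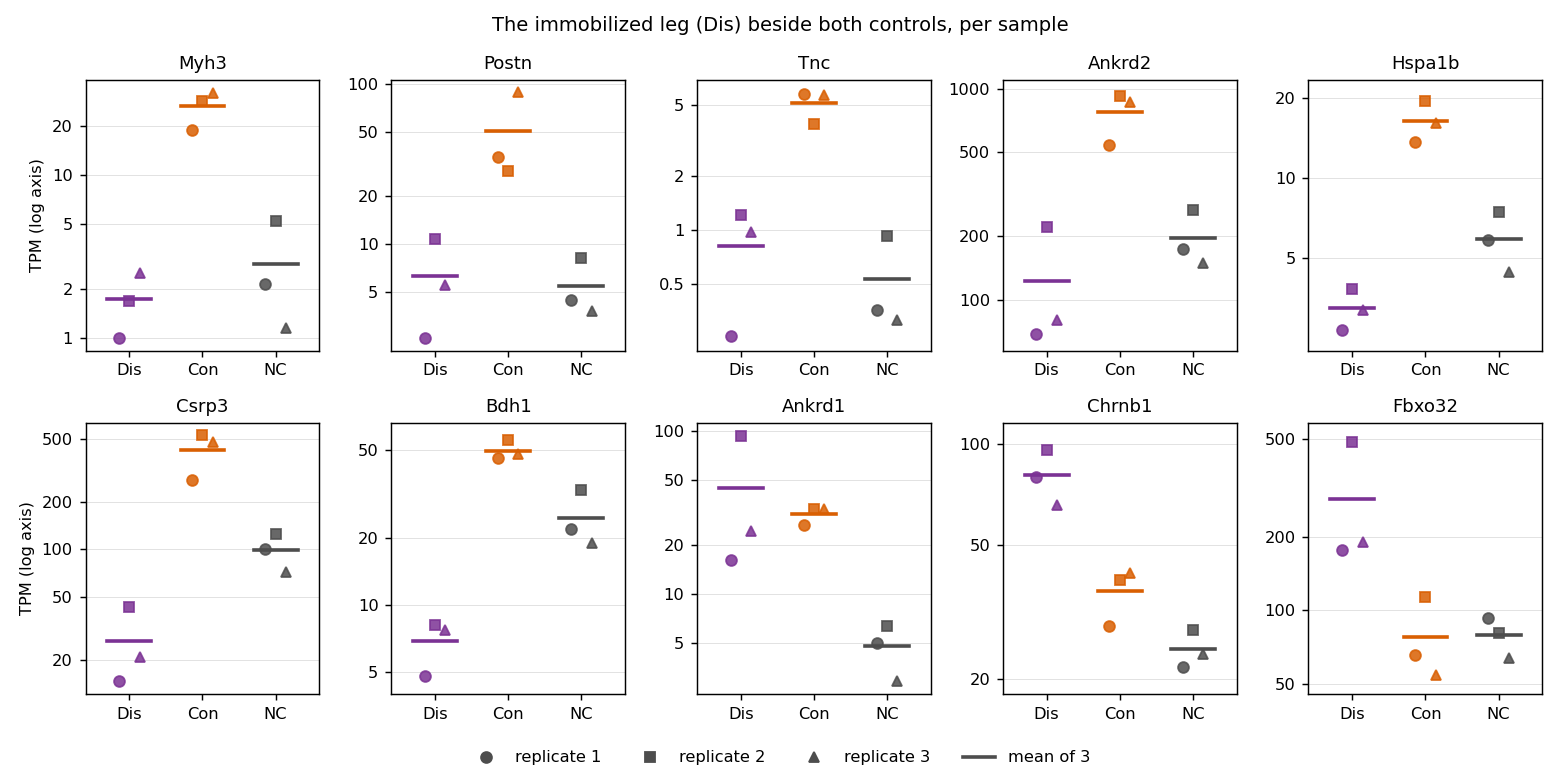
TPM on log axes for 10 genes in the 3 Dis samples (purple, left), the 3 Con samples (orange, middle) and the 3 NC samples (gray, right), with marker shape for the replicate number and a line for the mean. In Myh3, Postn and Tnc the Con samples stand above both other groups, in Csrp3 and Bdh1 the order is Con, NC, Dis from high to low, and in Fbxo32 Con and NC overlap below Dis.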

How the data were processed

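Bulk RNA of 9 mouse gastrocnemius samples (3 Dis, 3 Con, 3 NC) was sequenced by the authors, who used bcl2fastq 2.20, Trimmomatic, HISAT2 and StringTie. Values were deposited as TPM per gene, one table per sample, with 0.0001 in place of 0. The genome build is not given in the sources used here, and the gene coordinates are those of GENCODE M21 (GRCm38). TPM sums to 1000000 in every sample, so 1 abundant gene lowers the others, and the number of reads is unknown. Here 0.0001 counted as 0, the filter required 0.3 TPM or more in 3 or more of the 6 Con and NC samples, and log2(TPM + 0.5) was tested with limma 3.58.1 (R 4.3.3) with a mean trend and Benjamini-Hochberg adjustment at 0.05. Dis was compared in a 9-sample fit. Motif matches were sought in the RefSeq window nearest the deposited start of each listed gene, and in all windows. Listed genes were searched whatever their difference, so the motif shares do not bear on Con and NC. Shared sequence was measured as 50-base words found in other transcripts. Distances and the mitochondrial share had exact permutation tests. The limma step was tested on simulated data. The gene lists and members were chosen with earlier results of these data known.

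The genes counted as named were drawn from several sets, and not all of them are described above. The first sets were the genes called and the 10 with the largest difference in each direction (unadjusted p under 0.05, mean of at least 1 TPM, separate groups). The other sets were list members with an unadjusted p under 0.05 and genes the study names. Eif4e, Snrpe, Rbm3, Myh4, Myh7, Tnmd and Adipoq were named after their values were seen. Alternatives were other pseudocounts, filters, scalings, limma settings and samples left out.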

Additional observations from a re-analysis of the deposited data

How the results depend on the processing

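Genes called higher in Con numbered 5, against 2 with a pseudocount of 0.1, 0 with no filter, 3 with quantile normalization, 1 without mitochondrial genes, 1 without the mean trend, 31 with array weights and 0 with all 9 samples fitted. Genes called lower numbered 2, against 0 with no filter, 1 without the trend, 9 with array weights and 1 with all 9 samples. Leaving out each sample in turn gave 0 to 53 higher and 0 to 13 lower. Of 17 alternatives, Gm7327 was called in 13, Ankrd1 in 11, Snrpert in 10, Timp1, Tnc and Abra in 7 each and Gm10226 in 4. Below the unadjusted threshold, 527 genes were higher and 459 lower with all 9 samples, and 718 to 1202 and 583 to 791 with a sample left out. With no filter 24378 of 26334 genes lay within 2-fold. With the filter, 12419 of 15437 did with a pseudocount of 0.1 and 14820 with a pseudocount of 1. Of the 22 genes picked for a call or a large difference, 3 to 8 were called in Dis minus NC with a sample left out. In Dis minus Con 9 to 12 were called (leaving out Dis samples was chosen after seeing the data). Replicate numbers did not pair the samples (correlations of same-numbered deviations -0.0953, -0.0023 and -0.0499), and a fit with the replicate number as a block called 6 genes higher and 1 lower, with only 2 of the 7 named calls among them (highest adjusted limma p of the 7, 0.0881).

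Of 139 named genes, 6 changed sign under an alternative, and the interval of each includes 0 (12 of 834 values with a sample left out and 7 of 1655 under other alternatives). Myh4 was -0.010 with median-ratio scaling, -0.056 with quantile normalization, -0.0069 without mitochondrial genes and -0.016 with array weights. Rbm3 was 0.011 with array weights, and as log2 ratios of mean TPM Rbm3 was 0.038 and Myh7 0.080. With a sample left out, Myh4 ranged over -0.058 to 0.044, Myh7 over -0.35 to 0.54, Tnmd over -0.71 to 1.16, Rbm3 over -0.20 to 0.25, Fbxo32 over -0.38 to 0.14 and Trim63 over -0.24 to 0.27. The cause was not tested. With 3 samples a group and unknown depth, small differences of low genes are not resolved.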

Other observations

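Pdgfrb, Kcnj8 and the antibody gene Igkc had lower levels in Con. The mural cell receptor Pdgfrb had 10.6, 9.07 and 11.8 TPM in Con and 12.6, 15.6 and 13.01 TPM in NC (-0.38 ± 0.12). The channel gene Kcnj8 had 11.6, 9.08 and 11.6 TPM in Con and 17.4, 15.4 and 12.8 TPM in NC (-0.47 ± 0.14). Igkc, the kappa light chain constant region of B cells, had 0.490, 0.279 and 0.388 TPM in Con and 1.09, 0.945 and 0.822 TPM in NC (-0.72 ± 0.16). The groups did not overlap in any of these 3 genes, and none passed the adjusted limma threshold. Of 8 smooth muscle and pericyte markers 2 were lower below the unadjusted threshold and 0 higher. By sign 4 of the 8 were higher and 4 lower, with a median of 0.02. Their sums overlapped, at 186 to 265 TPM in Con and 235 to 270 TPM in NC. Tmem100, a membrane protein, had 10.3, 27.8 and 28.5 TPM in Con and 9.24, 8.15 and 13.4 TPM in NC (0.97 ± 0.38), where Con sample 1 lay within the range of NC. Of 25 growth signal genes 7 were higher and 1 lower below the unadjusted threshold (median 0.08), and the count higher was 3 without NC sample 1, 4 without Con sample 3 and 1 in the fit of all 9 samples. The growth factor Igf1 had 7.09, 3.10 and 5.78 TPM in Con and 2.74, 2.33 and 2.76 TPM in NC (0.84 ± 0.26), with every Con sample above every NC sample. H19, an imprinted noncoding RNA of developing muscle, had 681, 1340 and 910 TPM in Con and 484, 750 and 440 TPM in NC (0.79 ± 0.27), with Con sample 1 below NC sample 2.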
